A study of Homo sapiens with 4 samples.

Results

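The SLC25 genes encode the mitochondrial carriers, and their messenger RNA was followed at low and ambient oxygen in HCT116, a long-established line of human colon cancer cells. Members were the genes whose symbol on the array platform begins with SLC25A and a digit and that have a probe set listed for 1 gene only. This gave 50 symbols of 19777 genes on the array, 45 of them protein-coding carriers and the other 5 antisense RNAs or a pseudogene that share the prefix. The hypoxia group was held at 1% oxygen for 72 h and the normoxia group at 21% oxygen for 72 h, both after 24 h without serum. Each group held 2 arrays, which the labels call exp A and exp B. Nothing in the labels tells whether these letters stand for separate cultures, so the p-values reflect only how far these arrays differ, which may be technical variation, and the number of arrays limits the precision.

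Mitochondrial carriers are small membrane proteins, most of them in the inner mitochondrial membrane, that move nucleotides, phosphate, organic acids, amino acids, cofactors and ions between the cytosol and the matrix. Many work as exchangers, taking one solute in while letting another out. Through them the citrate cycle, ATP synthesis, the malate-aspartate shuttle, which brings reducing equivalents from cytosolic NADH into mitochondria, and the building of haem and iron-sulphur clusters are tied to the rest of the cell. In low oxygen, cells are known to rely more on glycolysis and less on respiration.

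Values are array signals, 1 per probe set, and each gene is represented by its probe set with the highest mean over the 4 arrays. Signals of different probe sets are not on a common scale, so levels are compared between arrays and not between genes. A log2 difference is the hypoxia mean minus the normoxia mean of log2(signal + 23.7). On this scale the differences of dim genes come out too small. A fold is the ratio of the mean signals without the added 23.7, so it can differ from the log2 difference. A gene was called at an adjusted p under 0.05 in a limma fit over all 12636 genes tested. Fits that left out 1 array had a single array in 1 group, so a gene's own spread came only from the other group. The median SD of the log2 values was 0.27 between the hypoxia arrays and 0.15 between the normoxia arrays. A call gained or lost in such a fit depends on this as well as on the array left out. A signal near that of the array's Bacillus control probe sets, which match no human gene, is close to background: the highest such signal was 305 on the hypoxia arrays and 121 on the normoxia arrays. All 5 hypoxia genes checked were called higher in hypoxia, with log2 differences from 2.10 (VEGFA) to 6.11 (ANGPTL4), though VEGFA was not called with the arrays scaled to the hybridization controls (0.64, adjusted p = 0.359). Marker genes of cell types were set against the Bacillus controls by group mean. The epithelial genes EPCAM, CDH1, KRT8, KRT18 and KRT19 lay above the Bacillus controls in both groups, while VIL1 and CDX1 lay above them in neither group and KRT20, CDX2 and CEACAM5 in 1 group each. None of 3 leukocyte genes lay above them by group mean, though LYZ had 42.2 and 308 in hypoxia, against 24.2 and 7.02 in normoxia. Of 6 fibroblast and endothelial genes only COL1A1, a collagen gene, lay above them. Its signals were 1752 and 2162 in hypoxia, against 545 and 595 in normoxia. COL1A1 gave most of the summed signal of the 6, which was 2288 and 2791 in hypoxia, against 717 and 1001 in normoxia. The part of these signals in the results was not tested. In RNA from a whole culture, fewer cells expressing a gene and less of its RNA per cell cannot be told apart.

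Hypoxia did not move the carriers one way. Of the 50 symbols, 41 had enough signal to be tested, and 17 of these were called (41.5%), 6 higher and 11 lower in hypoxia. Over all 12636 genes tested, 38.0% were called, 15.3% higher and 22.8% lower, so the share of called members lay near that background. The median log2 difference of the tested members was -0.07, against -0.03 for all genes. Judged by the log2 difference, 3 of the called members were at least 2-fold higher and 8 at least 2-fold lower. By the same measure, 9.66% of all genes were called and at least 2-fold higher and 16.2% called and at least 2-fold lower. The 6 genes that rose encode iron, pyrimidine nucleotide, ATP-Mg, phosphate and ATP/ADP carriers, though with the arrays scaled to the hybridization controls, which moved the median of all genes to -1.41, all 6 lay below 0 and 0.70 to 1.28 above that median. Those that fell were led by the ornithine carrier gene and the genes of dicarboxylate, oxoglutarate and aspartate/glutamate carriers. In 25 of the 41 tested members, and in 72.0% of all genes, both hypoxia values lay on one side of both normoxia values.

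**Figure D1:**
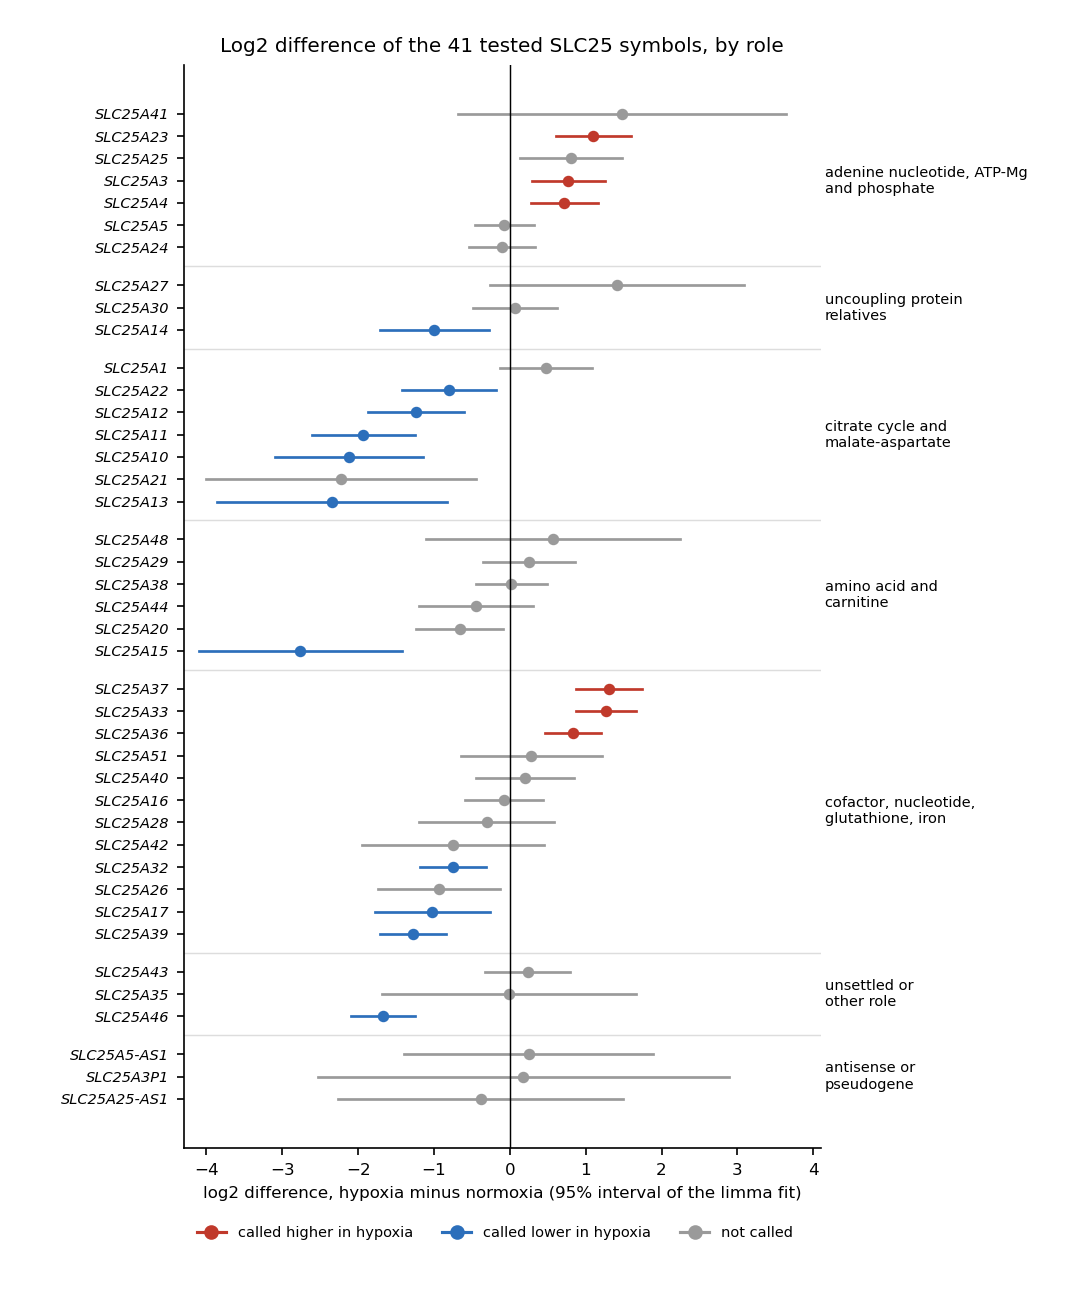
Log2 difference (hypoxia minus normoxia, x axis) of the 41 tested SLC25 symbols, grouped by role down the page; points are the limma estimates, lines their 95% intervals and colours the call. Of the citrate cycle and malate-aspartate carriers 5 lie in the lower, called class, while the adenine nucleotide and phosphate carriers hold 3 called higher and 0 called lower.

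**Figure D2:**
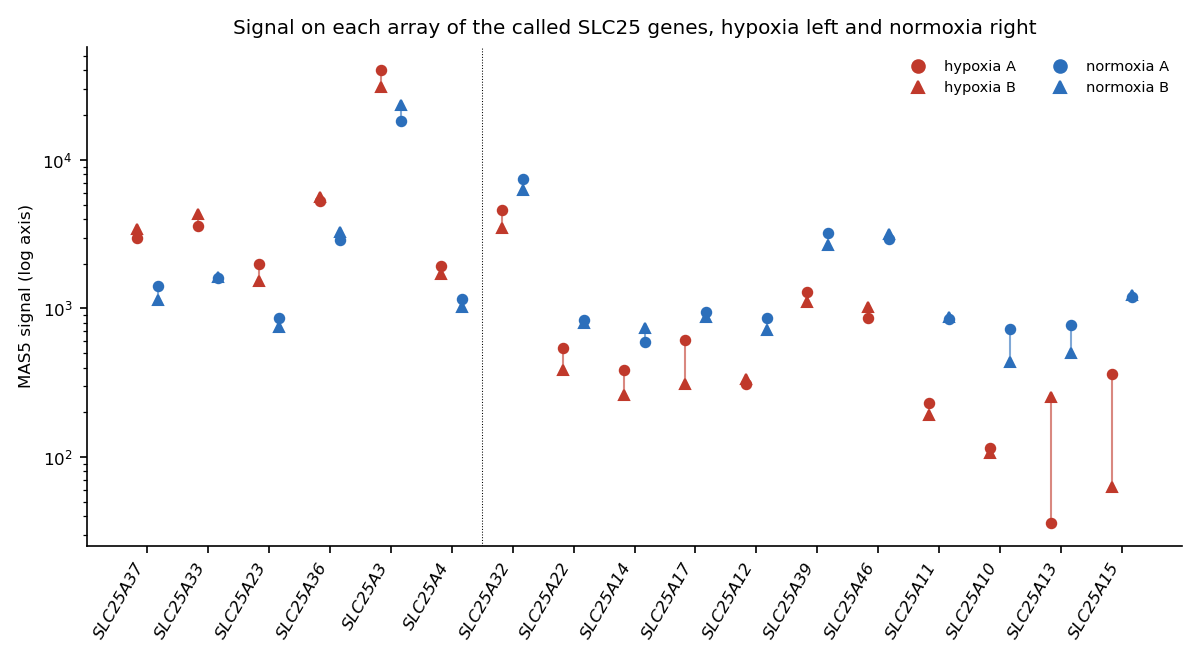
Signal (log y axis) on each of the 4 arrays for the 17 called members, with hypoxia on the left and normoxia on the right of each pair, circles for A and triangles for B. Lines join the A and B arrays of 1 group; the widest gaps are those of SLC25A13 (36.0 and 252) and SLC25A15 (365 and 62.4) in hypoxia.

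Among the carriers that exchange ATP, ADP and phosphate, 7 of 8 members were tested, and 3 were called higher, 0 lower and 4 not called. The shares over all genes were 15.3% higher and 22.8% lower. SLC25A23, one of the calcium-sensitive carriers that exchange ATP-Mg for phosphate and so set the matrix pool of adenine nucleotides, had signals of 1996 and 1540.0 in hypoxia, against 858 and 755 in normoxia. The groups did not overlap (2.19-fold higher in hypoxia, log2 difference 1.10 ± 0.22 SE, adjusted p = 0.00415), though without normoxia B the gene was no longer called (1.01, adjusted p = 0.0743). SLC25A4, the ADP/ATP exchanger best known from heart and muscle, had signals of 1919 and 1699 in hypoxia, against 1161 and 1019 in normoxia (log2 difference 0.72 ± 0.20 SE, adjusted p = 0.0182). Both hypoxia values were higher, but neither the fit without normoxia A (0.81, adjusted p = 0.142) nor that without normoxia B (0.63, adjusted p = 0.255) nor the mean of both its probe sets (0.33, adjusted p = 0.500) called it. SLC25A5, its counterpart in dividing cells, had 15341 and 15038 in hypoxia, against 14645 and 17369 in normoxia, and the groups overlapped (log2 difference -0.07, 95% interval -0.46 to 0.32). Quantile normalization of the arrays gave a lower call for SLC25A5 (-0.49, adjusted p = 0.00598). So did scaling to the hybridization controls (-1.53, adjusted p = 0.00849), at 0.11 below the median of all genes. Scaling to the 75th percentile gave 0.08 and no call. The 3 related ADP/ATP exchanger genes are close in sequence, and whether their probes tell them apart was not tested.

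SLC25A3, the carrier that brings phosphate into the matrix for ATP synthesis, had signals of 40457 and 31086 in hypoxia, against 18292 and 23506 in normoxia (log2 difference 0.77 ± 0.21 SE, adjusted p = 0.0190). Its direction was not settled by these data: quantile normalization of the arrays gave 0.03 (adjusted p = 0.838), a second, dimmer probe set gave -0.24 and was not called, and without hypoxia A the call was lost (0.58, adjusted p = 0.112). SLC25A25, another ATP-Mg carrier, had 618 and 962 in hypoxia, against 416 and 444 in normoxia. That was just short of the threshold (log2 difference 0.81 ± 0.30 SE, adjusted p = 0.0584), and leaving out 1 array gave 0.50 to 1.12. SLC25A24, the third ATP-Mg carrier with a clear signal, overlapped between the groups, with 4172 and 4981 in hypoxia, against 5623 and 4256 in normoxia (log2 difference -0.10, adjusted p = 0.707). SLC25A41 was near background on all arrays, at 144 and 157 in hypoxia, against 103 and 7.02 in normoxia (adjusted p = 0.252).

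The genes related to the uncoupling proteins, which in their best known form let protons leak back into the matrix, held 1 called member of 3. Over all genes 38.0% were called. SLC25A14 had signals of 388 and 263 in hypoxia, against 596 and 734 in normoxia, with no overlap (2.04-fold lower in hypoxia, 95% interval of the log2 difference -1.72 to -0.28, adjusted p = 0.0354). It was not called when normoxia A (-1.14, adjusted p = 0.134) or normoxia B (-0.85, adjusted p = 0.284) was left out. A second SLC25A14 probe set fell further, with 21.9 and 11.8 in hypoxia, against 335 and 204 in normoxia. SLC25A30 overlapped between groups (log2 difference 0.07, adjusted p = 0.849). SLC25A27 had 179 and 171 in hypoxia, against 37.1 and 67.8 in normoxia, values near background in both groups (log2 difference 1.41 ± 0.74 SE, adjusted p = 0.161).

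The carriers of citrate cycle acids and of the malate-aspartate shuttle were grouped with those of glutamate and 2-oxoadipate. This group had the lowest median of the 6 groups of carriers. The groups were formed with earlier results of these data known, so the rank is not independent of the values. Of 8 members 7 were tested, and 5 were called lower, 0 higher and 2 not called. Their median log2 difference was -1.93, against -0.03 for all genes, of which 22.8% were called lower and 15.3% higher. SLC25A11, which exchanges 2-oxoglutarate for malate and is the shuttle's malate carrier, had signals of 230.4 and 191 in hypoxia, against 854 and 882 in normoxia. The arrays of each group lay close together and far from the other group (4.12-fold lower, log2 difference -1.93 ± 0.30 SE, adjusted p = 0.00127), and this call held under each alternative setting run, although both hypoxia signals lay below the highest Bacillus control. A second SLC25A11 probe set had 82.8 and 113 in hypoxia, against 822 and 665 in normoxia, and was also called lower (log2 difference -2.66). SLC25A10, which exchanges malate and succinate for phosphate, had 116 and 106 in hypoxia, against 723 and 434 in normoxia (5.21-fold lower, log2 difference -2.12 ± 0.43 SE, adjusted p = 0.00466). Its hypoxia values lay below the highest Bacillus control, so the size of the fall rests on values near background, and without normoxia A it was not called (-1.76, adjusted p = 0.142).

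SLC25A12 and SLC25A13 encode the calcium-sensitive aspartate/glutamate carriers, which let aspartate out of the matrix in the malate-aspartate shuttle. SLC25A12 had signals of 309 and 334 in hypoxia, against 867 and 716 in normoxia (2.46-fold lower, log2 difference -1.24 ± 0.28 SE, adjusted p = 0.00812). The groups stood apart, but a second probe set was not called, at 262 and 346 in hypoxia, against 318 and 346 in normoxia (log2 difference -0.13, adjusted p = 0.810), and SLC25A12 was not called when normoxia A (-1.10, adjusted p = 0.142) or normoxia B (-1.37, adjusted p = 0.0597) was left out. SLC25A13 had 36.0 and 252 in hypoxia, against 780 and 504 in normoxia (log2 difference -2.34 ± 0.67 SE, adjusted p = 0.0223). The hypoxia arrays differed widely, so leaving out hypoxia A gave a log2 difference of -1.24 and leaving out hypoxia B one of -3.45, and neither the fit without normoxia A (-2.04, adjusted p = 0.131) nor the mean of its probe sets (-0.67, adjusted p = 0.250) called it. A second SLC25A13 probe set was not called, at 188.2 and 16.5 in hypoxia, against 304 and 187.7 in normoxia (log2 difference -1.51, adjusted p = 0.195). Another, too dim to be tested, was higher in hypoxia (log2 difference 1.86). The mean hypoxia signal of SLC25A13 lay below the highest Bacillus control. SLC25A22, a glutamate carrier, had 540.0 and 384 in hypoxia, against 833 and 794 in normoxia (log2 difference -0.80 ± 0.27 SE, adjusted p = 0.0452). These did not overlap, yet the gene was not called when normoxia A (-0.77, adjusted p = 0.287) or normoxia B (-0.84, adjusted p = 0.235) was left out. Without normoxia A, 1 member of this group was called lower, without normoxia B 3, and without either hypoxia array 6. The calls over all 12636 genes moved with these, to 1371 lower without normoxia A, 1434 without normoxia B, 3747 without hypoxia A and 3668 without hypoxia B, against 2876 with all arrays.

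The citrate carrier gene SLC25A1, whose product exports citrate for lipid synthesis, was the exception to the direction of its group. Its signals were 4971 and 2733 in hypoxia, against 2916 and 2396 in normoxia, so that the groups overlapped (log2 difference 0.48, 95% interval -0.13 to 1.08, adjusted p = 0.191). The log2 difference of SLC25A1 ran from 0.05 to 0.91 when 1 array was left out. SLC25A21, the carrier of 2-oxoadipate and related acids, had 11.3 and 141 in hypoxia, against 361 and 302 in normoxia, and was just short of the threshold (log2 difference -2.22 ± 0.78 SE, adjusted p = 0.0519), which it passed without hypoxia A (-1.10, adjusted p = 0.0417) and without hypoxia B (-3.34, adjusted p = 7.80e-04). SLC25A18, a second glutamate carrier, was too dim to be tested.

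The promoters of the carriers were searched for short motifs tied to oxygen response or to mitochondrial genes, in the 250 bases before the annotated start, on both strands. The first was ACGTG, the core bound by hypoxia-inducible factors, which also lies within the E-box (CACGTG, read alike on both strands). The others were CCGGAAG, a core of ETS factors such as GABP, and a form of the site of nuclear respiratory factor 1 (GCGC and TGCGC around 1 base of any kind). RefSeq starts (GRCh38.p14) were at hand for 38 of the 45 carriers. ACGTG was present before 14 of the 38 (36.8%), against 21.7% of all 27195 genes, CCGGAAG before 11 (28.9%), against 10.2%, and the nuclear respiratory factor 1 motif before 3 (7.89%), against 6.21%. The E-box was present before 8 (21.1%), against 7.74%. By call, ACGTG was found before 2 of 5 higher, 5 of 10 lower and 5 of 17 uncalled carriers, in either direction of change. A match is a run of letters and not a known binding site. The 27195 genes were not limited to protein-coding genes, as the carriers were, and base composition was not matched. The shares are therefore not like for like, and whether the carriers hold more of these motifs than similar genes was not tested. The windows of 2 called malate-aspartate carriers are shown because they differ in this: SLC25A11 at chr17:4940047-4940296 (- strand) holds the nuclear respiratory factor 1 motif and no ACGTG, and SLC25A13 at chr7:96322099-96322348 (- strand) holds a CACGTG. Capitals mark the matches.
SLC25A11: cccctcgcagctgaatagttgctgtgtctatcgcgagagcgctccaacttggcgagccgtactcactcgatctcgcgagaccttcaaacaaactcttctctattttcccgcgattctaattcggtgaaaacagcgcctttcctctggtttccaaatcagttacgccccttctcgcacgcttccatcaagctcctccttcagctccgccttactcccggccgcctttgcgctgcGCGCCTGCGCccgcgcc
SLC25A13: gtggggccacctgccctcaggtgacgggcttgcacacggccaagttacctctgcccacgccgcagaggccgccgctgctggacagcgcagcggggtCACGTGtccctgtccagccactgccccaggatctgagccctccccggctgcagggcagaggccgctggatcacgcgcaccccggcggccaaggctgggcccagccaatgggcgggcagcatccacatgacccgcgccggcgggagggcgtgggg

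Among carriers of amino acids and carnitine, 6 of 7 members were tested, with 1 lower, 0 higher and 5 not called. That is 16.7% called, against 38.0% of all genes. The gene that fell was SLC25A15, which exchanges cytosolic ornithine for citrulline and is known from the urea cycle. It had signals of 365 and 62.4 in hypoxia, against 1203 and 1232 in normoxia (5.70-fold lower, log2 difference -2.76 ± 0.59 SE, adjusted p = 0.00607). Both hypoxia values were well below both normoxia values, but they differed from each other, and leaving out hypoxia A gave a log2 difference of -3.85, leaving out hypoxia B one of -1.68. The call was lost in a fit without the intensity trend (adjusted p = 0.0700). SLC25A20, which carries acylcarnitines into the matrix for fatty acid oxidation, had 497 and 640.3 in hypoxia, against 843 and 976 in normoxia. That difference did not pass the threshold (log2 difference -0.66 ± 0.25 SE, adjusted p = 0.0673), and leaving out 1 array gave -0.84 to -0.49. The branched-chain amino acid carrier gene SLC25A44 was not called (-0.44, adjusted p = 0.317), and leaving out 1 array gave -0.88 to -0.01. The glycine carrier gene SLC25A38, needed for haem synthesis, differed by 0.02 (95% interval -0.45 to 0.49) and the basic amino acid carrier gene SLC25A29 by 0.25 (adjusted p = 0.488). SLC25A48, whose place in this group is not settled, differed by 0.57 (adjusted p = 0.570).

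Carriers of cofactors, nucleotides, glutathione and iron split, with 3 higher, 3 lower and 6 not called of 12. Of all genes, 15.3% were called higher and 22.8% lower. The largest called increase was that of SLC25A37, mitoferrin-1, which brings iron into mitochondria for haem and iron-sulphur cluster synthesis and is best known from developing red cells. It had signals of 2958 and 3409 in hypoxia, against 1406 and 1138 in normoxia (2.50-fold higher, log2 difference 1.31 ± 0.19 SE, adjusted p = 9.56e-04). The groups were clearly apart, and the array holds 10 probe sets for this gene. Of these, 8 passed the signal filter, all 8 were higher in hypoxia and 6 were called, with log2 differences from 1.31 to 2.61. The probe set with the highest mean thus gave the smallest of these differences. One of the others had 3267 and 3734 in hypoxia, against 669 and 608 in normoxia (log2 difference 2.41, adjusted p = 9.81e-05 in the fit of every probe set). SLC25A28, mitoferrin-2, which is expressed more widely, was not called, with 343 and 863 in hypoxia, against 712 and 651 in normoxia (log2 difference -0.31, adjusted p = 0.569). Without hypoxia B its log2 difference was -0.94, and without hypoxia A its sign turned (0.33). A second SLC25A28 probe set had 366 and 345 in hypoxia, against 683 and 591 in normoxia, with no overlap. It was not called either (log2 difference -0.80, adjusted p = 0.0620 in the fit of every probe set). The difference between the mitoferrins was not tested.

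**Figure D3:**
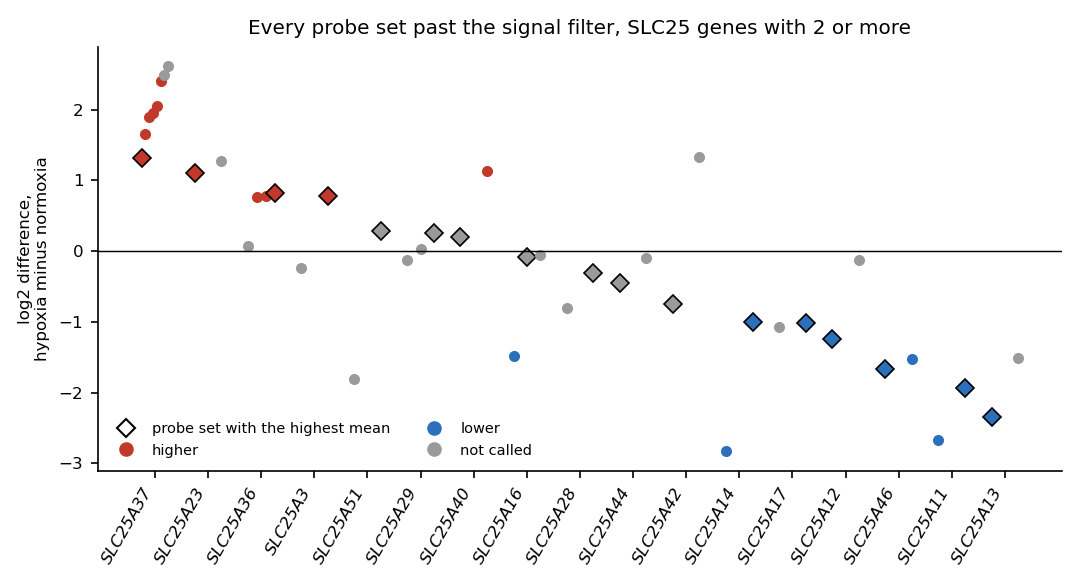
Log2 difference (hypoxia minus normoxia, y axis) of every probe set past the signal filter, for the 17 members with 2 or more; diamonds are the probe sets with the highest mean, and colours are calls in the fit of every probe set. SLC25A37 has all 8 of its points above 0, and SLC25A3, SLC25A29, SLC25A42 and SLC25A51 have points on both sides of 0.

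Both carriers of pyrimidine nucleotides, which supply mitochondria with building blocks for DNA and RNA, rose. SLC25A33 had signals of 3576 and 4303 in hypoxia, against 1611 and 1619 in normoxia (2.44-fold higher, log2 difference 1.27 ± 0.18 SE, adjusted p = 7.56e-04). SLC25A36 had 5277 and 5637 in hypoxia, against 2885 and 3247 in normoxia (1.78-fold higher, log2 difference 0.83 ± 0.16 SE, adjusted p = 0.00409). In both genes the hypoxia and normoxia values were well apart. SLC25A33 kept its call without any 1 array, while SLC25A36 lost it without normoxia A (0.74, adjusted p = 0.0684). Of 4 probe sets of SLC25A36 past the filter, 3 were called higher, with log2 differences of 0.76 to 0.83, and the other, dim one had 0.08. A further probe set, too dim to be tested, had -0.45. The mean of all 5 probe sets was not called (0.40, adjusted p = 0.334). Each of the windows before these genes holds a CACGTG (capitals), in SLC25A33 at chr1:9539215-9539464 (+ strand) and in SLC25A36 at chr3:140941586-140941835 (+ strand). They are shown because this pair of carriers with a shared substrate moved together.
SLC25A33: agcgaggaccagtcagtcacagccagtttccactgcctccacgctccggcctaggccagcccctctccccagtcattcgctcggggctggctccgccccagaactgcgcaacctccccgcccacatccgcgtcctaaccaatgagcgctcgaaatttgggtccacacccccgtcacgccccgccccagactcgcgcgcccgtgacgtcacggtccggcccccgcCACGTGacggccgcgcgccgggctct
SLC25A36: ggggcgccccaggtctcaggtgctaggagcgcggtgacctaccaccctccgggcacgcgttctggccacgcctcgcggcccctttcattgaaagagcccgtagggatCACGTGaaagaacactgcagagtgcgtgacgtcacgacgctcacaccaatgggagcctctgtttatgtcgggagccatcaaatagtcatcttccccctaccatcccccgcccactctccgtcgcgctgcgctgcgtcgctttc

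Of the glutathione carriers, SLC25A39 fell. Its signals were 1295 and 1097 in hypoxia, against 3196 and 2663 in normoxia (2.45-fold lower, log2 difference -1.27 ± 0.19 SE, adjusted p = 0.00112), and its call held under each alternative setting run. SLC25A39 has 1 probe set, so settings that change the probe set could not move its log2 difference. SLC25A40, its close relative, had 2714 and 1409.8 in hypoxia, against 1815 and 1590.1 in normoxia, with overlapping groups (log2 difference 0.20, adjusted p = 0.607). Its second probe set did not overlap, at 1059 and 1011 in hypoxia, against 535 and 389 in normoxia, and was called higher (log2 difference 1.14), so the 2 probe sets of SLC25A40 gave unlike answers. With 1 array left out, the log2 difference of the first one ran from -0.26 to 0.67.

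The other called cofactor carriers fell by smaller amounts. SLC25A17, a carrier of coenzyme A and other cofactors in the peroxisomal membrane, had 616 and 308 in hypoxia, against 946 and 877 in normoxia (1.97-fold lower, log2 difference -1.02 ± 0.33 SE, adjusted p = 0.0391). SLC25A32, which carries folate or flavin into mitochondria, had 4617 and 3502 in hypoxia, against 7414 and 6226 in normoxia (1.68-fold lower, log2 difference -0.75 ± 0.19 SE, adjusted p = 0.0135). Neither overlapped between groups. Without normoxia A both lost the call, SLC25A17 at -0.97 and SLC25A32 at -0.63, and SLC25A17 also without normoxia B (-1.07). SLC25A17 lost its call in 9 of 16 alternative settings, among them quantile normalization (-0.88, adjusted p = 0.0885) and a fit without the intensity trend (adjusted p = 0.121). Its second probe set was not called, at 37.1 and 236 in hypoxia, against 248 and 232 in normoxia (log2 difference -1.07, adjusted p = 0.288). SLC25A26, the carrier of the methyl donor S-adenosylmethionine, had 572 and 274 in hypoxia, against 734 and 837 in normoxia. It was not called (log2 difference -0.94 ± 0.35 SE, adjusted p = 0.0652), and leaving out 1 array gave -1.44 to -0.44. SLC25A51, which brings NAD into mitochondria, was not called (0.28, adjusted p = 0.618), nor was the coenzyme A carrier gene SLC25A42 (-0.75, adjusted p = 0.294), and in each a second probe set had the opposite sign. The probe set taken for SLC25A16 differed by -0.08 (adjusted p = 0.809) and belongs to a class that, by its suffix, may also bind other transcripts. Another probe set of SLC25A16 had 102 and 119 in hypoxia, against 377 and 327 in normoxia, and was called lower (log2 difference -1.49, adjusted p = 0.0358).

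SLC25A46 differs from the typical carrier in that it sits in the outer mitochondrial membrane, where it takes part in mitochondrial fission and fusion and in the organization of cristae. It had signals of 868 and 1026 in hypoxia, against 2937 and 3183 in normoxia (3.23-fold lower, log2 difference -1.67 ± 0.19 SE, adjusted p = 2.89e-04). The groups were far apart, a second probe set had 775 and 967 in hypoxia, against 2687 and 2412 in normoxia (log2 difference -1.53), and the call held under each alternative setting run. The window before the gene, at chr5:110738757-110739006 (+ strand), which precedes the start in RefSeq's promoter table but lies within the gene's full annotated span, is shown because it held 3 matches of CCGGAAG and 3 of ACGTG close to the start (capitals), 2 of these ACGTG matches being the strands of a CACGTG.
SLC25A46: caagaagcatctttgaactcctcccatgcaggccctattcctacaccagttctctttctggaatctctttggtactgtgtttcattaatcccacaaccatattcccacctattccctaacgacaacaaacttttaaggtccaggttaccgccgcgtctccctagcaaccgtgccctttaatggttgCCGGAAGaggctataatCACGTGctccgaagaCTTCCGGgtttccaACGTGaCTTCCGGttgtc

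Of the other members with unsettled substrates or another role 2 were tested and 0 called: SLC25A43 differed by 0.24 (95% interval -0.32 to 0.80) and SLC25A35, near background, by -0.01 (adjusted p = 0.996). The difference of SLC25A43 ran from -0.02 to 0.50 when 1 array was left out. Of the noncoding members 3 passed the filter, the antisense genes SLC25A25-AS1 and SLC25A5-AS1 and the pseudogene SLC25A3P1, all near background and none called (adjusted p from 0.744 to 0.918). The other 9 symbols had a mean signal under 97.4 and were not tested. They were SLC25A2, SLC25A18, SLC25A31, SLC25A34, SLC25A45, SLC25A47, SLC25A53, SLC25A21-AS1 and SLC25A48-AS1, with signals on single arrays from 1.89 to 231. Among the tested, SLC25A21, SLC25A25-AS1, SLC25A3P1, SLC25A27 and SLC25A41 passed the filter with 1 group's mean below it, and none of these 5 was called.

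Genes that work with the carriers were read in the same fit, and values in parentheses after a gene below are log2 differences. Counts for these lists are to be read against all genes tested, of which 15.3% were called higher and 22.8% lower. Carriers reach the inner membrane through small chaperones of the intermembrane space and the TIM22 insertase, and of 10 genes of that route 5 fell, 1 rose and 4 were not called, with a median log2 difference of -1.18. TIMM13 averaged 129 ± 77.8 in hypoxia and 1490.1 ± 40.2 in normoxia (SD, n = 2 arrays each; log2 difference -3.41 ± 0.39 SE, adjusted p = 3.07e-04). TIMM8A (-2.96), TIMM8B (-2.07) and TIMM10 (-1.76) also fell. The mean hypoxia signals of TIMM13 and TIMM8A lay below the highest Bacillus control, that of TIMM8A also below the filter, so the sizes of these differences rest on values near background. Other probe sets did not give the same calls: as the mean of their probe sets TIMM13 (-1.27, adjusted p = 0.0712) and TIMM8A (-0.55, adjusted p = 0.346) were not called, nor was TIMM8B on a probe set that lacks a suffix for shared sequence (-0.30, adjusted p = 0.347). TIMM9, which forms a chaperone complex with TIMM10, was the gene that rose (0.92, adjusted p = 0.0375), which it did not without hypoxia A (0.61, adjusted p = 0.0713), normoxia A (0.62, adjusted p = 0.341) or normoxia B (1.23, adjusted p = 0.0526), and it was named after its value was seen. TIMM8A was not called with normoxia A left out (-2.69, adjusted p = 0.0578). The receptor gene TOMM70 fell as well (-1.53) and completes the 5 that fell.

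Of 14 tested ATP synthase subunit genes, whose enzyme uses the phosphate and ADP that SLC25A3, SLC25A4 and SLC25A5 bring in, 8 fell, 0 rose and 6 were not called, with a median of -0.55. ATP5MC1, a gene of the membrane rotor, averaged 198 ± 38.4 in hypoxia and 1715 ± 182 in normoxia (SD, n = 2 arrays each; log2 difference -2.98 ± 0.27 SE, adjusted p = 1.18e-04), the hypoxia mean lying below the highest Bacillus control. ATP5PB (-1.16), ATP5F1D (-1.08) and ATP5PD (-0.89) fell by less. With probe sets that lack a suffix for shared sequence, ATP5PB was not called (-0.88, adjusted p = 0.278) and ATP5PD turned to 1.19 (adjusted p = 0.356), and as the mean of its probe sets ATP5PD turned to 0.15 (adjusted p = 0.772). Without normoxia B, 5 subunit genes were called lower. The carriers' shuttle partners split, with 2 higher, 2 lower and 4 not called of 8. The cytosolic enzymes ACLY (0.87), which cleaves exported citrate, and ME1 (0.61), malic enzyme, rose, and the mitochondrial enzymes ME2 (-1.77) and GOT2 (-0.85), the aspartate aminotransferase of the malate-aspartate shuttle, fell. ME1 turned to -0.01 (adjusted p = 0.979) on a probe set that lacks such a suffix, and lost its call without hypoxia B (0.37, adjusted p = 0.0522), normoxia A (0.66, adjusted p = 0.142) or normoxia B (0.57, adjusted p = 0.206), and GOT2 without normoxia A (-0.82, adjusted p = 0.0859) or normoxia B (-0.87, adjusted p = 0.0668).

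Of 4 tested carnitine shuttle enzymes, which make and use the acylcarnitines that SLC25A20 carries, CPT1A (-1.96, adjusted p = 0.00103) and CPT2 (-1.32, adjusted p = 0.0499) fell, 0 rose and 2 were not called. CPT2, whose hypoxia mean also lay below the highest Bacillus control, lost its call without hypoxia B (-0.70, adjusted p = 0.0611), normoxia A (-1.35, adjusted p = 0.181) or normoxia B (-1.29, adjusted p = 0.199). Of 4 tested genes of the carrier family with other names, MTCH2, an outer membrane protein insertase, fell (1643 ± 55.5 in hypoxia and 5629 ± 148 in normoxia; log2 difference -1.76 ± 0.16 SE), its relative MTCH1 rose (0.61, adjusted p = 0.0240) and 2 were not called. MTCH1 lost its call without hypoxia B (0.53, adjusted p = 0.0509) or normoxia A (0.47, adjusted p = 0.114). Among 17 genes of other mitochondrial membrane transport, 6 fell, 2 rose and 9 were not called (47.1% called, against 38.0% of all genes). SFXN2 (-3.44) and SFXN4 (-3.26), of the sideroflexin family, and MICU2 (-2.50), a regulator of the calcium uniporter, fell, and MCU (1.67), the uniporter pore, rose. The hypoxia means of SFXN2 and SFXN4 lay below the highest Bacillus control, that of SFXN2 also below the filter. SFXN2 was not called with normoxia A left out (-3.20, adjusted p = 0.0900) or as the mean of its probe sets (-0.90, adjusted p = 0.191), nor was MCU under the hybridization controls (0.24, adjusted p = 0.792). Of 11 regulators of mitochondrial biogenesis, 3 fell, 2 rose and 6 were not called, a called share (45.5%) near that of all genes (38.0%). The mitochondrial DNA packaging factor gene TFAM (-1.61), the transcription factor gene TFB2M (-1.23) and MYC (-1.19) fell, and the mitochondrial DNA polymerase gene POLG (0.94) rose. NRF1, the gene of nuclear respiratory factor 1, rose too (0.84, adjusted p = 0.0283). It was not called as the mean of its probe sets, nor without normoxia A or normoxia B. As the mean of its probe sets TFB2M turned to 0.06 (adjusted p = 0.932). POLG was not called when normoxia A (1.03, adjusted p = 0.0823) or normoxia B (0.84, adjusted p = 0.159) was left out, nor as the mean of its probe sets (0.30, adjusted p = 0.596).

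**Figure D4:**
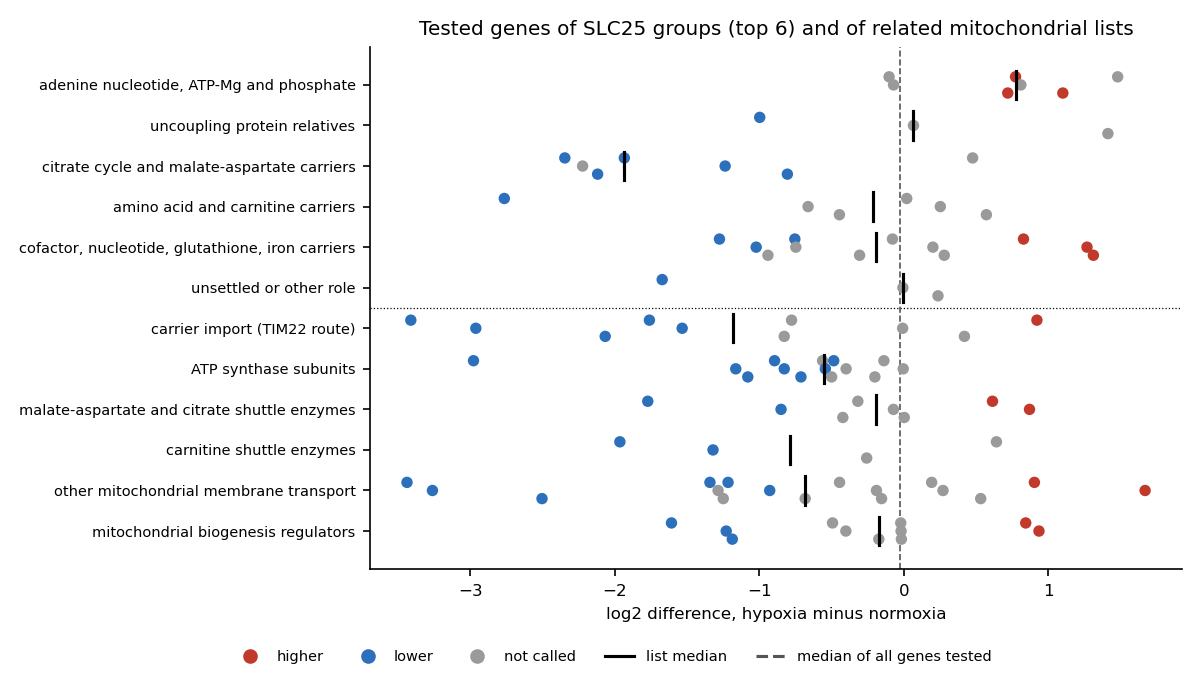
Log2 difference (hypoxia minus normoxia, x axis) of each tested gene, 1 row per SLC25 group (above the dotted line) or related mitochondrial list (below it); colours are calls, black bars list medians and the dashed line the median of all genes tested (-0.03). List medians run from -1.93 in the citrate cycle and malate-aspartate carriers to 0.77 in the adenine nucleotide, ATP-Mg and phosphate carriers.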

How the data were processed

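RNA of HCT116 cells was measured on 4 arrays of 54675 probe sets. Per the submitters' processing notes the deposited values, linear signal intensities, came from MAS5. No version is given in the sources used here. With 2% of values trimmed at either end, every array averaged 500.1, so arrays appear scaled to a common mean, and directions are relative to other genes. No 2 arrays shared more than 1 identical value. Of the probe sets, 41091 were listed for 1 gene in the platform annotation, and symbols were updated through a RefSeq table for 19735 of 19777 genes.

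A gene was read from its brightest probe set by mean signal, and tested if that mean was at least 97.4, the median of all probe set means. Values were taken as log2(signal + 23.7), 23.7 being the 25th percentile of all values. The test was two-sided, from limma 3.58.1 under R 4.3.3 (lmFit, eBayes with an intensity trend), and Benjamini-Hochberg adjustment over the 12636 genes. The fit was tested on simulated data. Every member could be named, and of each list up to 4 called genes with the largest difference. TIMM9, TOMM70, NRF1 and second probe sets were chosen after their values were seen. The members, lists, tests and alternatives were chosen with earlier results of these data known. Promoter sequences are from RefSeq (GRCh38.p14). Plots were made in matplotlib 3.10.9 (Python 3.11.15).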

Additional observations from a re-analysis of the deposited data

How the results depend on the processing

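Of 17 alternative settings, 16 gave a value for each of SLC25A11, SLC25A33, SLC25A37, SLC25A39 and SLC25A46. SLC25A33 and SLC25A39 have 1 probe set each, so settings that change the probe set could not move their log2 differences. SLC25A11, SLC25A39 and SLC25A46 kept their call and direction in all 16. SLC25A33 and SLC25A37 did so except under scaling to the hybridization controls. That scaling moved the median of all genes to -1.41 and gave 53 genes called higher and 5519 lower, against 1927 and 2876 as reported. It gave 0 members higher and 19 lower, a member median of -1.51, and negative differences for SLC25A37 (-0.13), SLC25A33 (-0.18), SLC25A23 (-0.33), SLC25A36 (-0.62), SLC25A3 (-0.68) and SLC25A4 (-0.72), which lay 0.70 to 1.28 above that median. Among the list genes it turned TIMM9 (-0.50), MTCH1 (-0.85), ACLY (-0.59), ME1 (-0.84) and POLG (-0.49), and VEGFA (0.64) and MCU (0.24) were no longer called. With 75th percentile scaling the median over all genes was 0.11 and that of the members 0.0782, and no signal filter gave a member median of 0.0441, against 0.16 for all genes. Averaging all of a gene's probe sets, also those under the signal filter, left 3 members higher and 7 lower (1400 and 1991 over all genes). It turned ATP5PD (0.15) and TFB2M (0.0566). Avoiding probe sets with a suffix for shared sequence turned SLC25A3 (-0.24), ME1 (-0.00701) and ATP5PD (1.19). Counted by probe set, 14 of 68 were higher and 14 lower, against 3262 and 4248 of 23176 over all genes. Of the 14 higher, 6 were of SLC25A37 and 3 of SLC25A36, so this is not a count of members. Without the intensity trend 5 members were lower, 1811 of all genes were, and ACLY, ATP5PD, CPT2, ME1, MTCH1, TFAM and TIMM9 were not called, and at an adjusted p under 0.01 it was 6 (1797 of all genes). Leaving out 1 array gave 4 to 9 members higher, 4 to 15 lower and a median from -0.257 to 0.0474, while the calls over all genes ran from 1204 to 2510 higher and 1371 to 3747 lower. The letters A and B are shared by the groups, but nothing in the labels says that they mark a pair; deviations of arrays with the same letter had a correlation of 0.09 across genes, and a replicate block gave 8 members higher and 13 lower (2222 and 3265 over all genes). Of the ATP synthase subunit genes, 13 were lower with quantile normalization, 14 under the hybridization controls and 5 with averaged probe sets, against 8 as reported. The causes of these changes were not tested. Alternatives for the list genes were chosen after seeing the data. The number of arrays, and signals near background in hypoxia for SLC25A10, SLC25A11, SLC25A13 and SLC25A15, limit the precision.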
